A study of Homo sapiens with 6 samples.

Results

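Core histones H2A, H2B, H3 and H4 are the proteins around which DNA is wrapped in the nucleosome, and their clustered genes were read on 56 of the 22277 probe sets of an expression array hybridised with RNA of NCI-H929, an established line of human myeloma cells. A probe set was taken when its platform annotation held at least one numbered symbol of the H2AC, H2BC, H3C or H4C families. Sets that named several such genes were kept. The choice used names only and no measured value. The 56 probe sets named 55 gene symbols, with 14 sets for H2A, 18 for H2B, 10 for H3 and 14 for H4. Of these, 36 sets named 1 gene and 20 named several, because coding sequences of one histone type are nearly alike. For 42 sets the annotated accession matched a RefSeq transcript and so pointed to 1 gene, and 2 sets with symbols of 2 types were placed by that gene.

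The study asked how cells respond to losing either subunit of ribonucleotide reductase, the enzyme that supplies deoxyribonucleotides for DNA synthesis. RRM1 is its large and RRM2 its small subunit. By their labels the 6 arrays fall into 3 groups of 2: knockdown of RRM1 by siRNA (siRRM1), knockdown of RRM2 by siRNA (siRRM2), and a control siRNA with no target (scramble). Every group was electroporated and its total RNA was taken 24 h later, so all groups carry the electroporation, and none was left untreated. The model is 1 cell line with partial loss of each message. Whether same-group arrays stem from separate cultures is not stated, so p-values here measure the spread between these samples only, which may be technical. RNA was pooled over all cells of a sample, so fewer cells making a transcript and less of it per cell cannot be told apart.

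Values are log2 signals, and differences are log2 differences from one limma fit over all 6 arrays and 22215 probe sets, with p-values adjusted over all of them (Benjamini-Hochberg). A probe set was said to rise or fall at an adjusted p under 0.05. Array medians lay between 6.11 and 6.16. RRM1 (201477_s_at) fell by 2.63 in siRRM1 (limma adjusted p = 0.00172). In siRRM2, RRM2 fell by 2.70 on 209773_s_at (limma adjusted p = 0.00118) and fell by 1.79 on 201890_at (limma adjusted p = 0.0320). The second of these calls was lost without scramble replicate 1 (limma adjusted p = 0.128) or scramble replicate 2 (0.124). The 10 myeloma and plasma cell markers had means between 9.04 and 13.15, above every array median, and the B cell markers PAX5 and MS4A1 had 4.77 and 4.49, below it, so the label of a plasma cell line was borne out. Of the 10, 6 were lower in siRRM1 at an unadjusted p under 0.05 (60%, against 11.4% of all probe sets). Both siRRM1 arrays lay below both scramble arrays in 9 of the 10 (90%, against 25.2% of all). Only FGFR3 fell in siRRM1 (10%, against 2.82% of all), at -0.54 (limma adjusted p = 0.0291). That call was lost without any 1 of the 6 arrays. The median of 21 control differences between 3′ and 5′ probe sets lay at 0.332 and 0.326 in siRRM1, 0.305 and 0.276 in siRRM2, and 0.344 and 0.311 in scramble. The siRRM1 replicate 2 array had the highest of these differences in 9 of the 21 controls, against 1 to 5 on each other array, and on it the median core histone set lay 0.07 above the scramble mean, against 0.26 on siRRM1 replicate 1. Most of these controls are added bacterial or phage sequences, which do not report on the RNA of the cells. The controls of human actin, GAPDH and ISGF3A read 0.03, -0.112 and 2.781 on siRRM1 replicate 1, and 0.326, -0.013 and 3.572 on siRRM1 replicate 2. On the siRRM2 arrays they read 0.048, -0.102 and 2.796, and 0.051, -0.102 and 3.239. On the scramble arrays they read 0.344, -0.017 and 2.866, and 0.151, -0.093 and 3.034. The part of RNA quality in the histone values was not tested.

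Most core histone genes lie in large clusters and are replication-dependent: they are transcribed in S phase, when new DNA has to be packed, and their messages are removed when DNA synthesis stops. Their mRNAs typically end in a stem-loop bound by SLBP in place of a poly(A) tail, and transcription is driven through NPAT, a substrate of cyclin E and CDK2. Some core histone genes also give polyadenylated transcripts, which standard cRNA labelling favours. How much of each signal came from either kind of message was not tested.

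Promoters of these genes carry known elements, and 49 of the 55 gene symbols matched a RefSeq promoter window (GRCh38.p14, 250 bases before to 50 after the annotated start). Because 4 genes had 2 windows, there were 53, of which 46 lie on chromosome 6, 6 on chromosome 1 and 1 on chromosome 12. Each was searched on both strands for the TATA box TATAAA, the CCAAT box CCAAT and the octamer ATTTGCAT, which is known from H2B promoters as a site of the factor OCT1. The octamer was in 13 of 17 H2B windows, 8 of 13 H2A, 1 of 10 H3 and 0 of 13 H4 windows, against 1.77% of all 35116 windows. The H3 window that held it, one of the pair for H3C4, covers the same bases as the H2AC7 window. Windows of some H2A and H2B neighbours on opposite strands overlap. The octamers in H2AC6, H2AC7, H2AC8, H2AC11, H2AC14 and H2AC17 are the same bases as in H2BC4, H2BC7, H2BC8, H2BC11, H2BC14 and H2BC17, in turn. The H2A and H2B octamer counts are therefore not separate. CCAAT was in 13 of 13 H2A, 17 of 17 H2B, 10 of 10 H3 and 3 of 13 H4 windows, against 34.6% of all windows. TATAAA was in 9 H2A, 13 H2B, 6 H3 and 7 H4 windows, against 11.5% of all. H2A and H2B windows also share bases of CCAAT and TATAAA matches, as in H2AC13 and H2BC13, so those counts are not separate either. The 2 windows of H2BC5 overlap almost wholly, as do those of H2BC12, and each window was counted. A match is only a run of letters, and 0 matches says only that these letters are not in the window. H2AC12, H2BC12L, H3C11, H3C12, H4C1 and H4C3 had no entry.

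In siRRM1 against scramble, 6 core histone probe sets rose and 2 fell. The sets that rose comprised 2 of H2A, 2 of H2B, 1 of H3 and 1 of H4, and the falls were 1 of H2A and 1 of H4. The rises made up 10.7% of the 56 sets, against 3.7% of all probe sets, and the falls 3.57%, against 2.82%, so the share of falls was near the background. At an unadjusted p under 0.05, 20 sets were higher and 3 were lower (35.7% and 5.36%), against 10.1% and 11.4% of all probe sets. Both siRRM1 arrays lay above both scramble arrays in 25 sets (44.6%), against 23.4% of all, and below both in 6 sets (10.7%), against 25.2%. The median difference of the 56 sets was 0.16, with 39 above 0, against a median of -0.004 over all probe sets. It was 0.07 without siRRM1 replicate 1 and 0.26 without siRRM1 replicate 2. Probe sets that share a sequence are not independent readings, and these shares carry no test. The number of rises was 4 without scramble replicate 1, 1 without scramble replicate 2, 3 without siRRM1 replicate 1, 4 without siRRM1 replicate 2 and 3 without either siRRM2 array. With the replicate number as a block, which no label ties to a shared culture, 17 sets rose and 3 fell. Over all probe sets the calls numbered 1448, and 402, 615, 1736, 350, 870 and 870 in the same order of arrays left out.

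In siRRM2 against scramble, limma called 0 of the 56 sets higher and 0 lower, where 0.576% and 0.104% of all probe sets were called. The median difference was 0.19, with 40 sets above 0, against -0.006 over all probe sets. At an unadjusted p under 0.05, 19 sets were higher and 4 lower (33.9% and 7.14%), against 7.4% and 6.39% of all. Both siRRM2 arrays lay above both scramble arrays in 31 sets (55.4%), against 22.3% of all, and below both in 5 sets (8.93%), against 24.1%. The called number of higher sets was 1 without scramble replicate 1, 2 without siRRM1 replicate 1 and 2 without siRRM1 replicate 2, and 0 without each of the other arrays. Over all probe sets the 151 calls became 27, 13, 131, 131, 19 and 9 without scramble replicates 1 and 2, siRRM1 replicates 1 and 2, and siRRM2 replicates 1 and 2 in turn. With the replicate number as a block, 12 sets were called higher, with the smallest p for H2BC5 (209911_x_at, limma adjusted p = 0.00621) and H2AC6 (215071_s_at, 0.00717). Without the block, 2 sets were called higher with a variance trend and 3 with array weights. With the 2 groups alone 2 were called higher, and 1 with 1 probe set per gene. Calls of single sets in siRRM2 therefore depended on the fit, including whether the arrays are taken as paired. These 2 comparisons share the scramble arrays, so their likeness is not independent evidence.

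Tested directly, siRRM1 against siRRM2 gave 0 called core histone sets with limma, against 0.0315% of all probe sets. At an unadjusted p under 0.05 there were 4 sets (7.14%), against 6.89% of all. They were 207156_at of H2A and 207611_at of H2B, higher in siRRM1, and 208569_at of H2A and 205967_at of H4, lower in siRRM1. The median difference was -0.003. The share at an unadjusted p was near the background, and a difference that misses the threshold does not show that the knockdowns act alike.

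**Figure D1:**
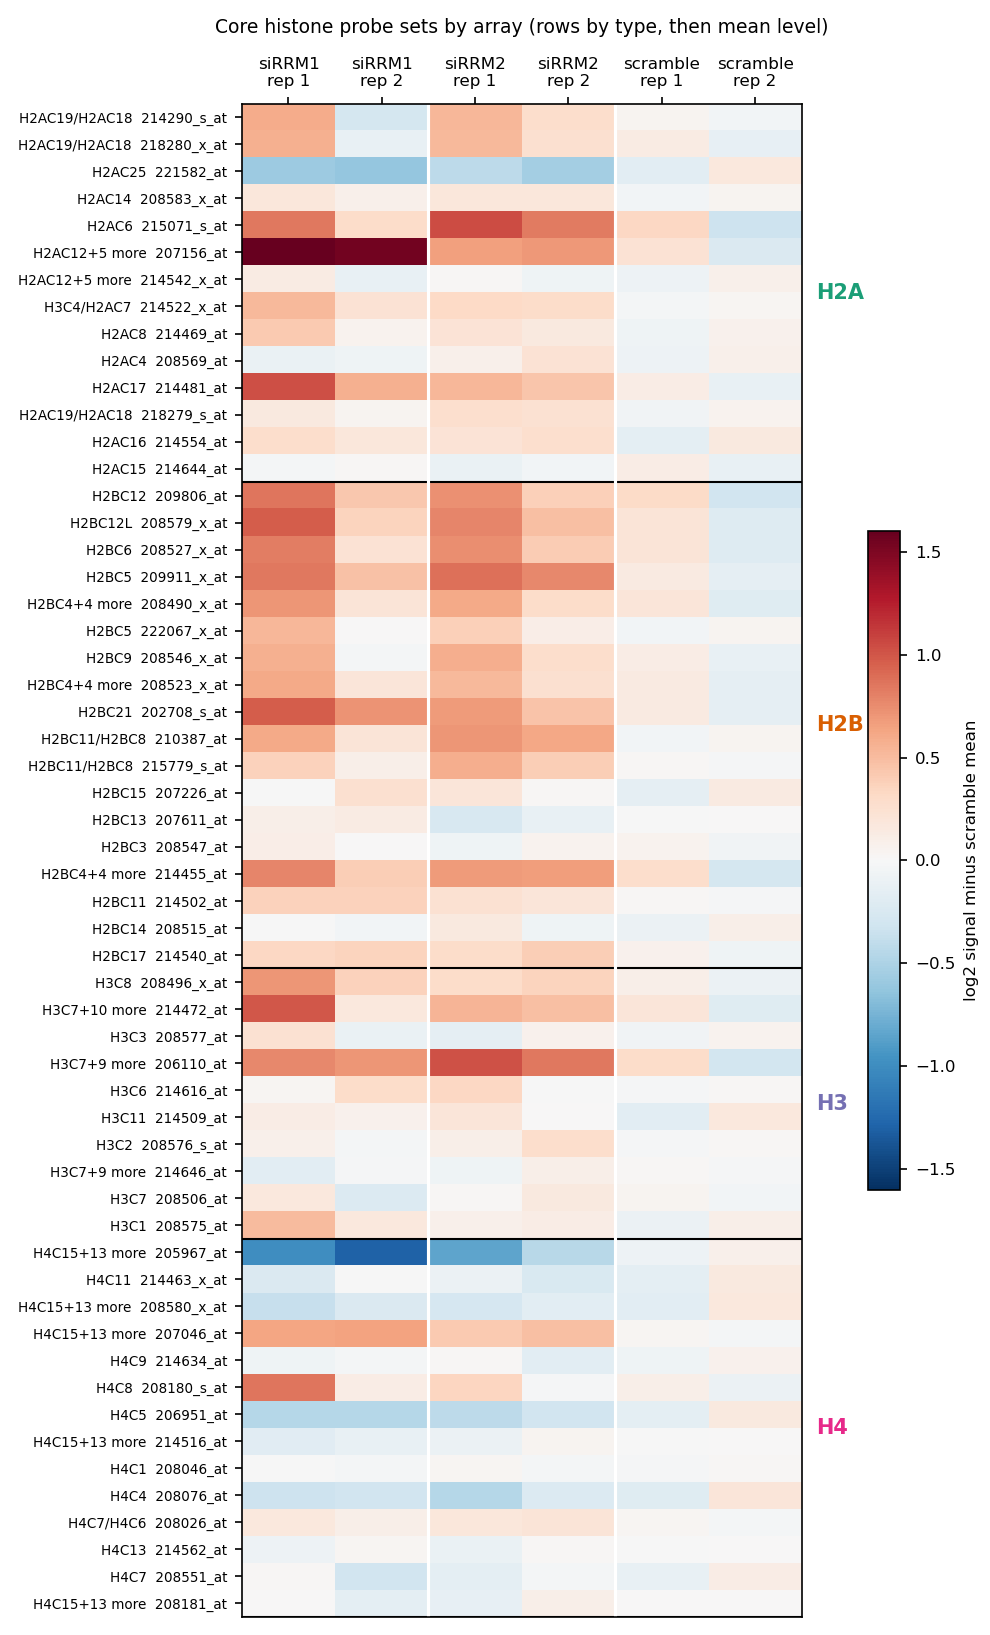
Log2 signal of each of the 56 core histone probe sets minus its scramble mean (colour), by array (columns) and by histone type and mean level (rows). H2B rows are mainly red on the siRRM1 and siRRM2 arrays, H4 rows are mixed, and replicate 1 is redder than replicate 2 in many H2B rows.

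Medians varied by histone type. H2B had the highest, 0.38 in siRRM1 and 0.44 in siRRM2, with 17 and 16 of 18 sets above 0. H2A followed with 0.19 and 0.25 and 11 of 14 sets above 0 in each, and H3 with 0.13 and 0.13 and 8 and 9 of 10. H4 had medians of -0.10 and -0.06, with 3 and 4 of 14 sets above 0. Single arrays moved these medians and their order. In siRRM1 the H2B, H2A and H3 medians were 0.22, 0.05 and 0.12 without siRRM1 replicate 1, and 0.59, 0.35 and 0.21 without siRRM1 replicate 2. Without scramble replicate 2 they were 0.29, 0.16 and 0.22 in siRRM1 and 0.28, 0.29 and 0.20 in siRRM2. Without scramble replicate 1 they were 0.40, 0.14 and 0.08 in siRRM1 and 0.54, 0.17 and 0.14 in siRRM2. H4 stayed below 0 with each array left out. No test was made between types, because sets of 1 type share sequence. When each array was centred on its median or quantile normalized, H2B kept 17 and 16 sets above 0 with medians of 0.34 and 0.36 in siRRM1 and 0.40 and 0.42 in siRRM2. H4 then had 3 sets above 0 in either knockdown. Of all 56 sets, 29 had a mean at or above the 40th percentile of all probe sets (log2 5.43), 11 of H2A, 11 of H2B, 1 of H3 and 6 of H4, and the 27 below it lay where small differences are hard to read. The 27 gave 1 of the 8 calls in siRRM1, that of the H3 set 206110_at.

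**Figure D2:**
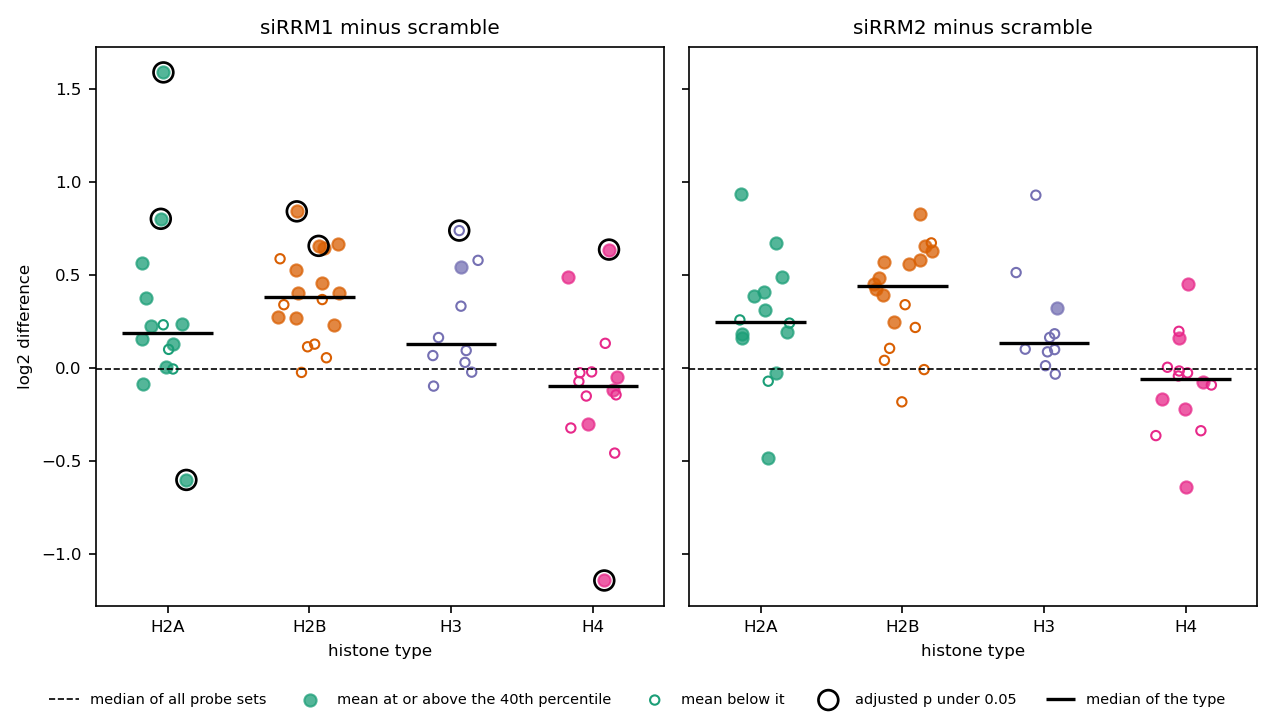
Log2 difference of each core histone probe set against scramble (y axis) by histone type (x axis), for siRRM1 (left) and siRRM2 (right); filled points have a mean at or above the 40th percentile, black rings mark an adjusted p under 0.05, bars are the medians of a type and the dashed line is the median of all probe sets. The 8 ringed points are all in siRRM1, and the H2B median is the highest of the 4 types in both panels.

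H2A pairs with H2B in the nucleosome, and its genes gave the largest single rise. Probe set 207156_at names 6 H2A genes, and its accession is that of H2AC11. It read 8.04 and 7.95 in siRRM1, 7.06 and 7.10 in siRRM2, and 6.64 and 6.17 in scramble. All siRRM1 arrays lay above all siRRM2 arrays, and these above the scramble arrays, with no overlap. The rise in siRRM1 was 3.01-fold (log2 1.59, SE 0.15, limma adjusted p = 0.00155), and the call was kept without each of the 6 arrays in turn. In siRRM2 the difference was 0.67 (SE 0.15, limma adjusted p = 0.0944). Between siRRM1 and siRRM2 it was 0.92 (limma adjusted p = 0.129). The other set with the same 6 symbols, 214542_x_at with the accession of H2AC13, read 7.01 and 6.76 in siRRM1, 6.89 and 6.81 in siRRM2, and 6.79 and 6.97 in scramble. Its groups overlapped, and its differences were 0.00 and -0.03.

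H2AC17, one of those 6 genes, also has a set of its own (214481_at), which rose in siRRM1. That set read 6.15 and 5.68 in siRRM1, 5.64 and 5.56 in siRRM2, and 5.24 and 4.99 in scramble. Both knockdown groups lay above the scramble arrays. The rise was 0.80 (SE 0.16, limma adjusted p = 0.0256), against 0.49 in siRRM2 (limma adjusted p = 0.232). The call was kept without siRRM1 replicate 2 and lost without each of the other 5 arrays, with differences of 0.57 to 0.92 and adjusted p of 0.0516 to 0.117 from limma.

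H2AC25 moved the other way. This H2A gene lies on chromosome 1, away from the large clusters on chromosome 6. Its set 221582_at read 7.67 and 7.62 in siRRM1, 7.82 and 7.70 in siRRM2, and 8.07 and 8.42 in scramble, so every knockdown array was below both scramble arrays. It fell by 0.60 in siRRM1 (SE 0.13, limma adjusted p = 0.0319), against -0.48 in siRRM2 (limma adjusted p = 0.148). The call was kept without scramble replicate 1 and lost without each of the other 5 arrays, with adjusted p of 0.0598 to 0.153 and differences of -0.63 to -0.43.

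Shown here are the windows of H2AC11, whose accession the H2A set with the largest rise carries, and of the H2A gene that fell. H2AC11 is at chr6:27132793-27133092 on the plus strand, and H2AC25 at chr1:228457824-228458123 on the minus strand. Capitals mark matches to the 3 motifs on either strand, and 2 TATAAA matches of opposite strand overlap in H2AC11.
H2AC11: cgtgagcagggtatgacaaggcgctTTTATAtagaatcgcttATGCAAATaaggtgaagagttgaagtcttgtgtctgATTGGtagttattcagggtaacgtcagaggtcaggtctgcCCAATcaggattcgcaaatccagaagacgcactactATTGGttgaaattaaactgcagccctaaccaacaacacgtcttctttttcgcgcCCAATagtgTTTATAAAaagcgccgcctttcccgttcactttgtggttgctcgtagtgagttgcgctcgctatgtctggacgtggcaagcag
H2AC25: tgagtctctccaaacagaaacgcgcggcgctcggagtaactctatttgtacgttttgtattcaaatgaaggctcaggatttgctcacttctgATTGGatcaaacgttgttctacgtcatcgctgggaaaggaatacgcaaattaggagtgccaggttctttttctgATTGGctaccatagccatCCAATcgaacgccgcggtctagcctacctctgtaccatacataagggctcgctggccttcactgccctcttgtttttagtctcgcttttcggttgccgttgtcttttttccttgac
The H2AC11 window overlaps that of H2BC11, chr6:27132746-27133045 on the minus strand. The H2AC25 window held CCAAT matches only.

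Among the other H2A sets, that of H2AC6 (215071_s_at) read 7.66 and 7.11 in siRRM1, 7.86 and 7.64 in siRRM2, and 7.15 and 6.49 in scramble. The siRRM2 arrays were above both scramble arrays, and siRRM1 replicate 2 lay below scramble replicate 1. The differences were 0.56 (SE 0.24, limma adjusted p = 0.216) and 0.93 (SE 0.24, limma adjusted p = 0.134). H2AC4 (208569_at) read 5.42 and 5.46 in siRRM1, 5.61 and 5.76 in siRRM2, and 5.45 and 5.60 in scramble, and was one of the sets lower in siRRM1 than in siRRM2 at an unadjusted p under 0.05. That difference was -0.25 (limma adjusted p = 0.704).

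H2AC18 and H2AC19, a pair of near-identical genes, share 3 probe sets. The set 214290_s_at read 10.65 and 9.78 in siRRM1, 10.60 and 10.35 in siRRM2, and 10.11 and 10.01 in scramble. For 218280_x_at the values were 9.48 and 8.80 in siRRM1, 9.43 and 9.18 in siRRM2, and 9.05 and 8.78 in scramble. In both, the siRRM2 arrays lay above the scramble arrays, while siRRM1 replicate 1 lay above them and siRRM1 replicate 2 did not. The third set, 218279_s_at, had differences of 0.10 in siRRM1 and 0.26 in siRRM2. None of the 3 passed the test in either knockdown, with limma adjusted p from 0.307 to 0.792. The 5 H2A sets not named here had differences of -0.01 to 0.37 in siRRM1 and -0.07 to 0.31 in siRRM2, and none passed.

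**Figure D3:**
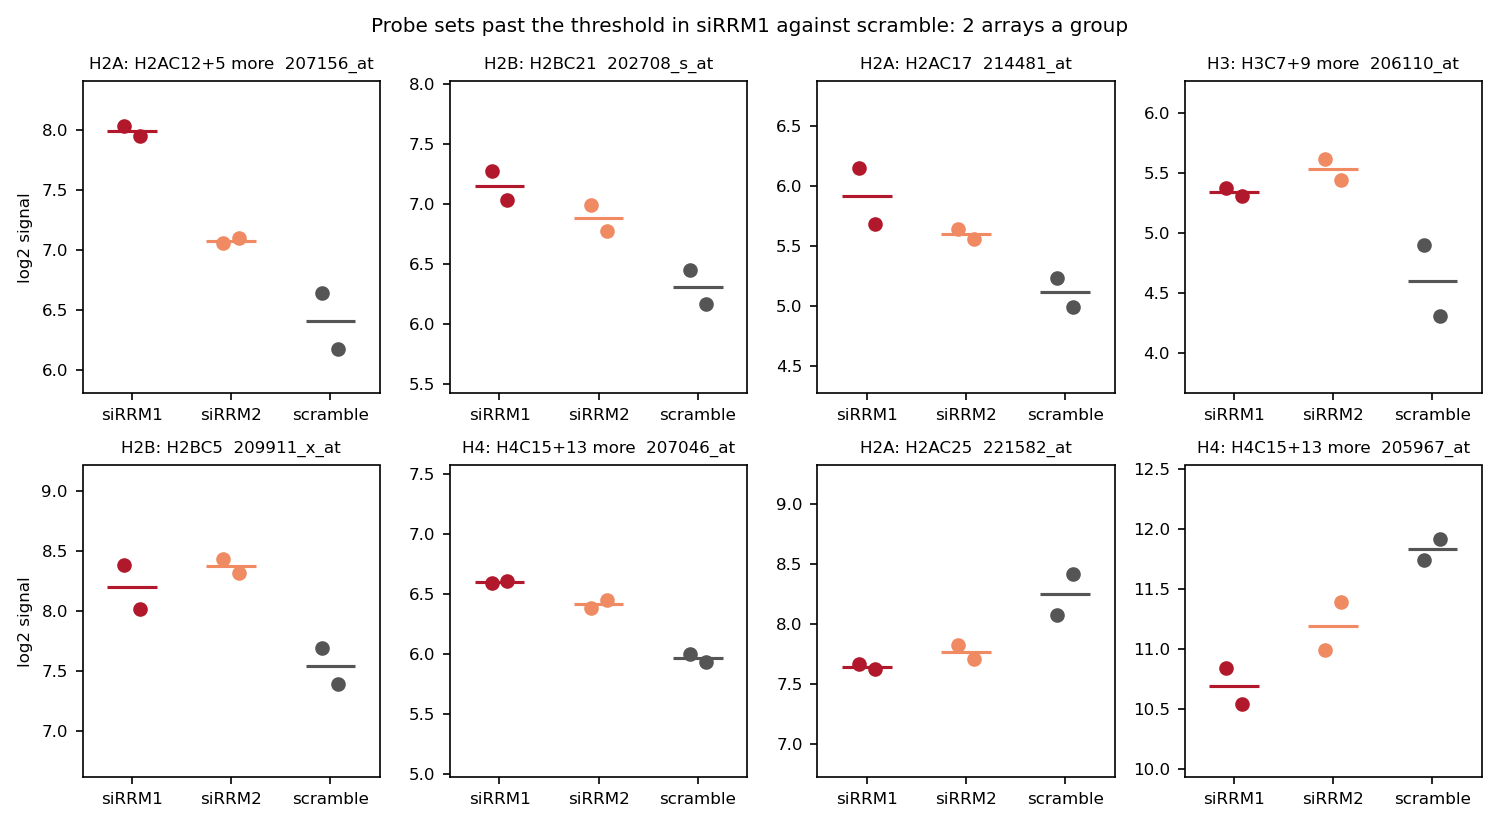
Log2 signal (y axis, the same span in every panel) of the 8 core histone probe sets past the threshold in siRRM1 against scramble, with 1 point an array and a bar at the mean of each group's 2 arrays. The groups do not overlap between siRRM1 and scramble in any panel, 6 sets are higher and 2 are lower in siRRM1, and siRRM2 lies on the same side of scramble as siRRM1 in all 8. The sets were chosen by this siRRM1 call, which favours groups that do not overlap. Both knockdowns are set against the same scramble arrays, so the shared side is not independent evidence.

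H2B, the partner of H2A, had the most uniform differences. Its sets with a mean at or above the 40th percentile were above 0 in 11 of 11 cases in both knockdowns, with medians of 0.46 in siRRM1 and 0.56 in siRRM2. Centring or quantile normalization left all 11 above 0, with medians of 0.41 and 0.47 in siRRM1 and 0.52 and 0.54 in siRRM2. Their median distance from the scramble mean was 0.71 and 0.21 on the siRRM1 arrays, 0.68 and 0.39 on the siRRM2 arrays, and 0.14 and -0.14 on the scramble arrays. The siRRM1 pair thus spanned more than the distance from its lower array to the scramble mean. Of the 18 H2B sets, 2 rose in siRRM1 (11.1%, against 3.7% of all probe sets). At an unadjusted p under 0.05, 11 were higher (61.1%, against 10.1% of all) and 0 lower (against 11.4%). In siRRM2 limma called 0, and the unadjusted counts were again 11 higher and 0 lower (against 7.4% and 6.39% of all).

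H2BC21, a gene on chromosome 1 that is known to give polyadenylated mRNA too, had the largest H2B rise. Its set 202708_s_at read 7.27 and 7.03 in siRRM1, 6.99 and 6.77 in siRRM2, and 6.45 and 6.17 in scramble. No knockdown array overlapped the scramble arrays. The rise in siRRM1 was 1.79-fold (log2 0.84, SE 0.14, limma adjusted p = 0.0135), and the difference in siRRM2 was 0.57 (SE 0.14, limma adjusted p = 0.124). Without scramble replicate 2 the siRRM1 value was 0.70 (limma adjusted p = 0.0691), and leaving out any other array kept the call.

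H2BC5 was the other H2B gene that rose. Set 209911_x_at read 8.38 and 8.02 in siRRM1, 8.43 and 8.31 in siRRM2, and 7.69 and 7.39 in scramble. Both knockdown pairs lay above both scramble arrays. The differences were 0.66 in siRRM1 (SE 0.15, limma adjusted p = 0.0409) and 0.83 in siRRM2 (SE 0.15, limma adjusted p = 0.0570). The siRRM1 call was lost without any 1 of the 6 arrays, at differences of 0.47 to 0.84 and adjusted p of 0.0525 to 0.170. In siRRM2 the set passed without siRRM1 replicate 1 or siRRM1 replicate 2 (0.0495 for each). The second set of this gene, 222067_x_at, read 7.94 and 7.41 in siRRM1, 7.80 and 7.51 in siRRM2, and 7.37 and 7.45 in scramble. There siRRM1 replicate 2 lay between the scramble arrays, and the differences were 0.27 and 0.25 (limma adjusted p = 0.449 and 0.613).

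H2BC12 (209806_at) read 11.82 and 11.40 in siRRM1, 11.69 and 11.35 in siRRM2, and 11.26 and 10.66 in scramble. Every knockdown array was above both scramble arrays, yet the gap within the scramble pair was about as large as the mean difference. The differences of 0.64 and 0.56 (SE 0.22 each) did not pass (limma adjusted p = 0.132 and 0.316). H2BC12L (208579_x_at), an H2B gene of similar sequence outside the large clusters, read 10.44 and 9.82 in siRRM1, 10.25 and 9.94 in siRRM2, and 9.67 and 9.26 in scramble. Here too every knockdown array was above both scramble arrays, and the differences of 0.67 and 0.63 missed the threshold (limma adjusted p = 0.116 and 0.254).

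H2BC8 and H2BC11 share 2 sets. In 210387_at the values were 6.81 and 6.41 in siRRM1, 6.91 and 6.82 in siRRM2, and 6.16 and 6.25 in scramble. In 215779_s_at they were 6.64 and 6.37 in siRRM1, 6.86 and 6.67 in siRRM2, and 6.30 and 6.26 in scramble. The knockdown arrays lay above the scramble arrays on both sets, and the siRRM2 differences (0.66 and 0.48) were larger than those of siRRM1 (0.40 and 0.23). For 210387_at in siRRM2 the limma adjusted p was 0.0816, and 0.0458 without siRRM1 replicate 1 or siRRM1 replicate 2. H2BC11 also has a set of its own (214502_at), below the 40th percentile, where the order was the opposite. Its differences were 0.37 in siRRM1 and 0.22 in siRRM2 (limma adjusted p = 0.055 and 0.350). H2BC13 (207611_at), below the 40th percentile, read 4.69 and 4.72 in siRRM1, 4.35 and 4.48 in siRRM2, and 4.58 and 4.61 in scramble. Its siRRM1 minus siRRM2 difference was 0.30 (limma adjusted p = 0.589). The 7 H2B sets named nowhere else in the text, that of H2BC11 among them, had differences of -0.02 to 0.53 in siRRM1 and -0.01 to 0.58 in siRRM2.

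These windows belong to the H2B genes with 1 symbol a set that either rose or gave the strongest signal of their type. H2BC21 is at chr1:149886633-149886932 on the minus strand, H2BC12 at chr6:27146806-27147105 on the minus strand, and H2BC5 at chr6:26157871-26158170 on the plus strand, with capitals as above and the first of the pair of windows for H2BC12 and H2BC5.
H2BC21: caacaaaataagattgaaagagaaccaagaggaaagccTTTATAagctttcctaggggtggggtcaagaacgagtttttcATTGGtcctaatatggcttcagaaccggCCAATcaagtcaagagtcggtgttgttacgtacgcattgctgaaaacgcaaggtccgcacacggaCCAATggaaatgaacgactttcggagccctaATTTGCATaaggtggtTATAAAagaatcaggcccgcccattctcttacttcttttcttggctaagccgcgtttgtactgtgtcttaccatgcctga
H2BC12: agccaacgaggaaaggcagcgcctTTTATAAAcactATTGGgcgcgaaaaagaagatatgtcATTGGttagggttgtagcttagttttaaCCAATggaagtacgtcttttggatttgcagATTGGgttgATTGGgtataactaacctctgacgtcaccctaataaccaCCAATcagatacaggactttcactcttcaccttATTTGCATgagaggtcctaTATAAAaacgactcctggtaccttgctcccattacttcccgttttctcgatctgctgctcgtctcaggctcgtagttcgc
H2BC5: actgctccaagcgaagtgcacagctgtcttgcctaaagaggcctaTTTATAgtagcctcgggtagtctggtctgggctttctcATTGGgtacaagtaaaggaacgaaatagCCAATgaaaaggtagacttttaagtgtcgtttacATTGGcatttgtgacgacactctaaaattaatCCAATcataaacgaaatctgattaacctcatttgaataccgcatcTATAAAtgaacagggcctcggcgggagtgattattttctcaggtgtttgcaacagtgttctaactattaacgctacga
The octamer was in the H2BC21 and H2BC12 windows and not in that of H2BC5, and TATAAA and CCAAT matches were in all of them. In H2BC12, 2 TATAAA matches of opposite strand overlap.

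H3 and H4 form the central tetramer of the nucleosome. H3 was measured poorly, since 9 of its 10 sets had means below the 40th percentile. The exception was H3C8 (208496_x_at), which read 7.13 and 6.79 in siRRM1, 6.71 and 6.77 in siRRM2, and 6.51 and 6.33 in scramble. All knockdown arrays lay above both scramble arrays. The difference in siRRM1 was 0.54 (SE 0.13) at a limma adjusted p of 0.0502, just over the threshold, and in siRRM2 it was 0.32 (limma adjusted p = 0.333). The siRRM1 difference passed with the filter at the 40th percentile (0.0420), quantile normalization (0.0481), a variance trend (0.0475), 1 probe set per gene (0.0373) and the replicate block (0.0198).

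The H3 set that rose, 206110_at, names 10 H3 genes and has the accession of H3C10. It read 5.37 and 5.31 in siRRM1, 5.62 and 5.44 in siRRM2, and 4.90 and 4.31 in scramble. The scramble arrays lay 0.59 apart, below all knockdown arrays. The differences were 0.74 in siRRM1 (SE 0.18, limma adjusted p = 0.0485) and 0.93 in siRRM2 (SE 0.18, limma adjusted p = 0.0666). In siRRM1 the call stayed without scramble replicate 1 and was lost without each of the other 5 arrays, at differences of 0.44 to 0.77 and adjusted p of 0.0798 to 0.178, and also with arrays centred on their median (0.0528) or quantile normalized (0.0719). In siRRM2 the set passed without scramble replicate 1 (1.23, limma adjusted p = 0.0330). The other set with the same 10 symbols, 214646_at, had differences of -0.10 and 0.01.

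For 214472_at, with 10 H3 symbols, the symbol of H2AC7 and the accession of H3C4, the values were 5.90 and 5.08 in siRRM1, 5.46 and 5.39 in siRRM2, and 5.11 and 4.71 in scramble. One siRRM1 array was high and the other within the scramble range. The difference in siRRM1 was 0.58 (limma adjusted p = 0.217), and 0.99 without siRRM1 replicate 2 (limma adjusted p = 0.0468). H3C1 (208575_at) read 3.97 and 3.64 in siRRM1, 3.56 and 3.59 in siRRM2, and 3.38 and 3.57 in scramble, with differences of 0.33 and 0.10 that did not pass (limma adjusted p = 0.192 and 0.817). The 5 remaining H3 sets had differences of -0.02 to 0.16 in siRRM1 and -0.03 to 0.18 in siRRM2.

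H4 held both a fall and a rise on sets annotated to the same 14 genes. Set 205967_at, with the accession of H4C3, read 10.84 and 10.54 in siRRM1, 11.00 and 11.40 in siRRM2, and 11.75 and 11.92 in scramble. The arrays fell into 3 separate levels, siRRM1 lowest and scramble highest. In siRRM1 it fell by 1.14 on the log2 scale (SE 0.16, limma adjusted p = 0.00724), to 0.453 of the scramble level. The siRRM2 difference was -0.64 (SE 0.16, limma adjusted p = 0.128), and between the knockdowns it was -0.50 (limma adjusted p = 0.562). Without siRRM1 replicate 2 the siRRM1 difference was -0.99 (limma adjusted p = 0.0527), and the call was kept without each other array.

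Set 207046_at, with the accession of H4C14, went up. It read 6.59 and 6.61 in siRRM1, 6.38 and 6.45 in siRRM2, and 6.00 and 5.93 in scramble. These arrays also fell into 3 separate levels, in the opposite order. The rise in siRRM1 was 1.55-fold (log2 0.64, SE 0.09, limma adjusted p = 0.00900), and the siRRM2 difference was 0.45 (SE 0.09, limma adjusted p = 0.0795). The siRRM1 call was lost without scramble replicate 2 (0.60, limma adjusted p = 0.0515) or siRRM1 replicate 2 (0.63, limma adjusted p = 0.0527). A further H4 set, 214463_x_at, is annotated to H4C11 with an accession of H4C12. It read 6.56 and 6.78 in siRRM1, 6.70 and 6.54 in siRRM2, and 6.63 and 6.95 in scramble, with overlapping groups and differences of -0.12 and -0.17. The H4C5 set (206951_at) read 4.78 and 4.77 in siRRM1, 4.81 and 4.93 in siRRM2, and 5.07 and 5.40 in scramble, and its difference of -0.46 in siRRM1 did not pass (limma adjusted p = 0.0689).

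The window of H4C14, the accession gene of the H4 set that rose, is at chr1:149832407-149832706 on the plus strand and is shown beside those of H2A and H2B because none of the 3 motifs is in it.
H4C14: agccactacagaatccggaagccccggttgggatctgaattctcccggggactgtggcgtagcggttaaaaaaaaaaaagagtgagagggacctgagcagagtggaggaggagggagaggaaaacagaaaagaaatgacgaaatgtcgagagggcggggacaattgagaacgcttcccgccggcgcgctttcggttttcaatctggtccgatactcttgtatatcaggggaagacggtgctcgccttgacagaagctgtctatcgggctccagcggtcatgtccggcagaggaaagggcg
The 7 further H4 sets with 1 or 2 symbols had differences of -0.32 to 0.49 in siRRM1 and -0.34 to 0.20 in siRRM2.

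Sets with the same symbols differed in other groups too. Over the 5 sets of the 14 H4 genes, the siRRM1 differences were -1.14 (205967_at), -0.30 (208580_x_at), -0.15 (214516_at), -0.07 (208181_at) and 0.64 (207046_at). Over the 3 sets that name H2BC4 with 4 further H2B genes they were 0.46 (208490_x_at), 0.40 (208523_x_at) and 0.59 (214455_at) in siRRM1, and 0.45, 0.39 and 0.67 in siRRM2. These 3 H2B sets lay close together. The 3 sets of H2AC18 and H2AC19 had 0.15, 0.22 and 0.10 in siRRM1, and 0.41, 0.39 and 0.26 in siRRM2. The 2 sets of H2BC8 and H2BC11 had 0.40 and 0.23 in siRRM1, and 0.66 and 0.48 in siRRM2, so these groups too were above 0 throughout. The H4 sets and the pairs of H2A and H3 sets given above did not lie close together. Nor did the pair of H2BC5 sets (0.66 and 0.27 in siRRM1, 0.83 and 0.25 in siRRM2). A statement on one of these genes from one of these sets holds for that set only.

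**Figure D4:**
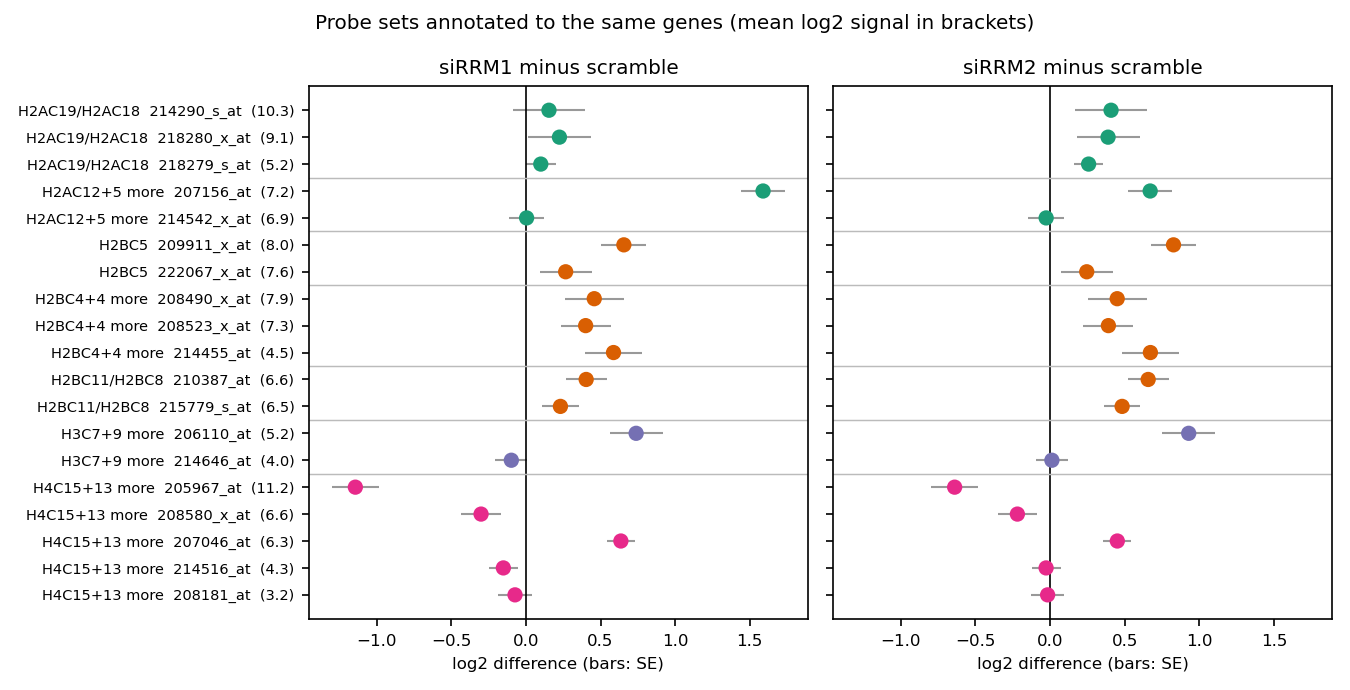
Log2 difference against scramble (x axis, bars are the SE of the fit) of the probe sets that share a symbol list, for siRRM1 (left) and siRRM2 (right), with the mean log2 signal of the set in brackets. In siRRM1 the 2 sets of the 6 H2A genes spread from near 0 to 1.59, and the 5 sets of the H4 group from -1.14 to 0.64. The H2B sets and the 3 sets of H2AC18 and H2AC19 all lie above 0.

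The spread within groups was itself shared among the H2B sets. In 9 of the 11 H2B sets at or above the 40th percentile (81.8%), replicate 1 was above replicate 2 in siRRM1, in siRRM2 and in scramble alike. The same held for 17 of all 56 sets (30.4%) and for 15.3% of all probe sets. The median gap between replicates 1 and 2 in these 11 sets was 0.42 in siRRM1, 0.28 in siRRM2 and 0.29 in scramble. In the 6 H4 sets at that level it was -0.03, 0.05 and -0.16. These gaps were of the same order as the H2B medians against scramble (0.46 and 0.56). The source of the shared gap was not tested.

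**Figure D5:**
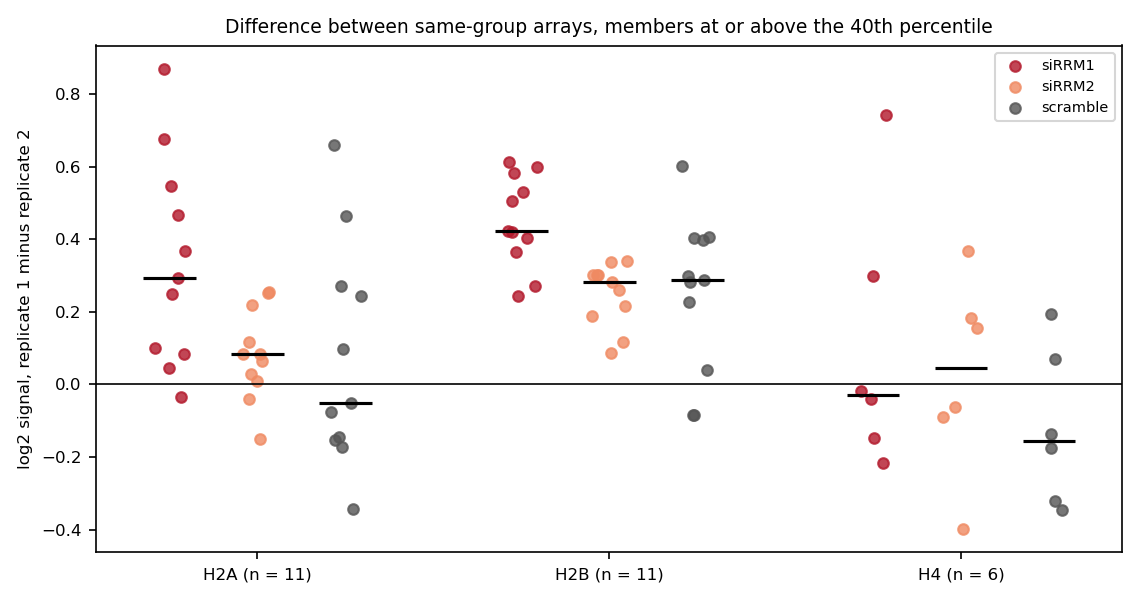
Log2 signal of replicate 1 minus replicate 2 (y axis) for each probe set at or above the 40th percentile, by histone type and group (colour), with bars at the medians. For H2B nearly all points lie above 0 in all 3 groups, and for H4 they lie on both sides of 0; the 1 H3 set is not drawn.

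A list of genes known to give polyadenylated core histone mRNA as well (H2AC6, H2AC18, H2AC19, H2BC4, H2BC5, H2BC12, H2BC21, H4C8, H4C14 and H4C15) took in 12 of the 56 sets, by the gene of the accession or because no other symbol was named. Of these, 3 rose in siRRM1, those of H2BC21, H2BC5 and 207046_at, and none fell (25% higher, against 3.7% of all probe sets). At an unadjusted p under 0.05, 6 were higher in siRRM1 (50%, against 10.1% of all) and 7 in siRRM2 (58.3%, against 7.4%). Their median difference was 0.53 in siRRM1 and 0.43 in siRRM2, with 11 of 12 above 0 in each. The other 44 sets had 3 rises and 2 falls in siRRM1, with medians of 0.12 and 0.13. Signal level differed too: 9 of the 12 had a mean at or above the 40th percentile, against 20 of the 44. All core histone sets at that level had medians of 0.37 and 0.39. On single arrays the median distance of the 12 from the scramble mean was 0.704 and 0.205 in siRRM1, and 0.525 and 0.335 in siRRM2. In 8 of them (66.7%) replicate 1 was above replicate 2 in all 3 groups, against 15.3% of all probe sets. No test was made between the 12 and the 44 sets, and limma called none of either in siRRM2.

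Genes that act on histones were read as lists, each gene by its single-symbol probe set of highest mean. Of 9 measured replication-independent and variant histones (15 listed), none rose and 1 fell in siRRM1 (11.1%, against 2.82% of all probe sets). It was H1-10, a linker histone, at -0.76 (SE 0.16, limma adjusted p = 0.0287), which was lost without scramble replicate 2, either siRRM1 array or either siRRM2 array, at adjusted p of 0.0533 to 0.0994. The variants H2AX and H2AZ2 had differences of 0.12 and -0.40 in siRRM1 (limma adjusted p = 0.575 and 0.141) and 0.14 and -0.15 in siRRM2, and the list's medians were -0.07 and 0.03. Limma called none of the list in siRRM2, where 0 were under an unadjusted p of 0.05 (against 13.8% of all probe sets).

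Of 14 measured genes of histone transcription and mRNA processing (21 listed), 2 rose in siRRM1 (14.3%, against 3.7% of all probe sets) and none fell. By the unadjusted p, 4 were under 0.05 and higher and 1 was lower (28.6% and 7.14%, against 10.1% and 11.4% of all). CCNE2, cyclin E2, read 9.89 and 10.12 in siRRM1, 9.32 and 9.55 in siRRM2, and 8.92 and 8.91 in scramble. It formed 3 separate levels and rose by 1.09 in siRRM1 (SE 0.12, limma adjusted p = 0.00281), a call kept without each array in turn, with 0.52 in siRRM2 (limma adjusted p = 0.108). CDK2, its kinase partner, rose by 0.52 (limma adjusted p = 0.0322), a call lost without either scramble array, siRRM1 replicate 2 or either siRRM2 array (adjusted p 0.0525 to 0.169). E2F1, a transcription factor of the G1/S transition, had 0.40 and 0.37 (limma adjusted p = 0.122 and 0.284), and passed in siRRM1 without siRRM1 replicate 1 (limma adjusted p = 0.0443). SLBP and NPAT, named here for their known roles after their values were seen, had differences of 0.18 and -0.02 in siRRM1 and 0.13 and -0.05 in siRRM2. The list's medians were 0.01 and -0.02, and limma called 0 of it in siRRM2. There 2 genes were higher at an unadjusted p under 0.05 (14.3%, against 7.4% of all probe sets) and 0 lower (against 6.39%).

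Of 20 histone chaperones, which carry new histones to DNA, 2 rose in siRRM1 (10.0%, against 3.7% of all probe sets) and none fell (against 2.82%). They went both ways at an unadjusted p under 0.05, 5 higher and 4 lower (25% and 20%, against 10.1% and 11.4% of all). ASF1B, a carrier of H3 and H4, read 8.94 and 9.27 in siRRM1, 8.94 and 8.94 in siRRM2, and 8.01 and 8.40 in scramble. Both knockdown pairs lay above both scramble arrays, and the differences were 0.90 in siRRM1 (SE 0.15, limma adjusted p = 0.0151) and 0.74 in siRRM2 (limma adjusted p = 0.0795). The call was lost without scramble replicate 1 (0.71, limma adjusted p = 0.0884) or siRRM1 replicate 2 (0.73, limma adjusted p = 0.0942). CHAF1B, a subunit of the chromatin assembly factor CAF-1, rose by 0.46 (limma adjusted p = 0.0445), lost without any 1 of the 6 arrays (adjusted p 0.0594 to 0.206). ANP32E and NASP had differences of -0.31 and 0.01 in siRRM1 and -0.29 and -0.23 in siRRM2. Medians were 0.02 and 0.00, and limma called 0 in siRRM2. At an unadjusted p under 0.05, 1 gene was higher in siRRM2 and 2 were lower (5% and 10%, against 7.4% and 6.39% of all probe sets).

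Of 21 measured S phase genes (22 listed), 7 rose in siRRM1 (33.3%, against 3.7% of all probe sets) and none fell (against 2.82%), at a median of 0.29. Besides CCNE2, the smallest p-values were those of PCNA, the sliding clamp of DNA polymerase (0.72, limma adjusted p = 0.00611, kept without each array), DTL (0.62, limma adjusted p = 0.0143) and TK1, thymidine kinase (0.63, limma adjusted p = 0.0177). DTL was lost without either scramble array or siRRM1 replicate 2 (adjusted p 0.0530 to 0.0950), and TK1 without scramble replicate 1 (0.106) or siRRM1 replicate 2 (0.103). In siRRM2 the median was 0.07 and limma called 0, with 4 higher at an unadjusted p under 0.05 (19%, against 7.4% of all), among them PCNA at 0.34 (limma adjusted p = 0.177). In siRRM1 against siRRM2 all 21 were above 0, at a median of 0.24, and limma called 0, with 9 higher at an unadjusted p under 0.05 (42.9%, where 6.89% of all probe sets were under it in either direction). The S phase list thus lay above scramble in siRRM1, as most core histone sets did. In siRRM2 the core histone median was 0.19, against 0.07 for the list, and between the knockdowns it was -0.003, against 0.24. The part of S phase in the histone differences was not tested.

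Markers of other cell types were also read beside these results. The 5 myeloid markers had summed levels (log2) of 9.26 and 10.52 in siRRM1, 8.21 and 9.36 in siRRM2, and 7.29 and 7.41 in scramble. Of the 5, 3 rose in siRRM1 (60%, against 3.7% of all probe sets). These were S100A8 (4.23, limma adjusted p = 0.00698), S100A9 (2.55, limma adjusted p = 0.0120) and CSF1R (1.5, limma adjusted p = 0.0209), of which S100A9 and CSF1R were lost without either scramble array or siRRM1 replicate 2 (adjusted p at most 0.0751 and 0.125). CD14 and LYZ, also on the myeloid list, had means of 4.30 and 3.11, below the 40th percentile of all probe sets. Both siRRM1 arrays lay above both scramble arrays in 4 of the 5 myeloid markers (80%, against 23.4% of all probe sets). The lowest of the 5 siRRM1 differences was -0.002. Of 4 stromal markers only ACTA2 rose in siRRM1 (2.10, limma adjusted p = 1.807e-04) and in siRRM2 (1.31, limma adjusted p = 0.00522). It made up 25% of that list, against 3.7% and 0.576% of all probe sets called higher. The siRRM2 call was lost without scramble replicate 2 or siRRM2 replicate 2, at differences of 1.295 and 1.197. None of 3 T cell, 2 B cell and 4 epithelial markers passed in either knockdown. The summed myeloid level was higher on replicate 2 than on replicate 1 of each knockdown, opposite to most H2B sets, and its part in the histone differences was not tested.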

How the data were processed

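Values are log2 signals of 22277 probe sets on 6 arrays, deposited by the authors. Not given in the sources used here are the methods of probe summary and of normalization. Array medians already lay on a common scale. Biotinylated cRNA was made by the array maker's standard protocol, per the labels' protocols. The 62 control probe sets were left out, and the other 22215 entered a fit by limma 3.58.1 under R 4.3.3 (lmFit, eBayes; 3 residual and 5.19 prior degrees of freedom) over all 6 arrays with no filter. Each knockdown was set against scramble and siRRM1 against siRRM2, two-sided, with a Benjamini-Hochberg adjusted p under 0.05 as the threshold. The 2 arrays a group limit the precision. Self-tests were run on simulated data. Summaries and figures used Python 3.11.15 with pandas 2.3.3, numpy 2.4.6 and matplotlib 3.10.9.

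Gene names came from the platform annotation, and accessions were matched to RefSeq transcripts. The text names every core histone set past the threshold. Per histone type it also names the 2 sets of highest mean and the 2 of smallest p in each contrast. Where such a set has 1 symbol, the text names other sets with that symbol alone too. Of each further list it names members past the threshold, at most 4, or the 2 of smallest p where none passed. The sets of H4C5, H2AC15, H2AC16 and H2BC11 alone fall outside this rule, as do SLBP, NPAT, CD14 and LYZ. They were chosen after their values were seen. So were the sets set side by side because they share a symbol list, and the replicate gaps. Members and lists were chosen with earlier results of these data known. Context genes were read on their single-symbol probe set of highest mean. Alternatives were a filter at the 40th percentile, 2 normalizations, a variance trend, array weights, the replicate block, fits of the 2 groups compared, a 1.5-fold minimum, 1 probe set per gene, restricted probe sets and leaving out each array. The members' proteins were not analysed here.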

Additional observations from a re-analysis of the deposited data

How the results depend on the processing

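For the 22 core histone sets named by rule, 66 differences had 882 alternative values, of which 32 lost and 34 gained a call and 0 reversed the sign of a called value. A further 66 uncalled values moved by at least the SE of that difference in the main fit, and 750 did none of these. The rises in siRRM1 (6) numbered 3 with the 2 groups alone, 3 among sets with 1 symbol and 1 to 4 with an array left out. The falls (2) numbered 1 with the 2 groups alone, 1 with 1 set per gene, 1 among sets with 1 symbol, and 0 to 2 with an array left out. The siRRM2 rises (0) numbered 2 with a variance trend, 3 with array weights, 2 with the 2 groups alone, 1 with 1 set per gene, and 0 to 2 with an array left out. Over all probe sets, the siRRM1 calls (1448) were 870 with the 2 groups alone, 875 at 1.5-fold or more, and 350 to 1736 with an array left out. The siRRM2 calls (151) were 322 with a trend, 295 with weights, and 9 to 131 with an array left out. Calls between the knockdowns (7) were 14 with a trend, 14 with 1 set per gene, and 2 to 10 with an array left out. With the replicate block, calls over all probe sets were 2496 in siRRM1, 606 in siRRM2 and 90 between the knockdowns, and core histone rises 17, 12 and 1 (207156_at, limma adjusted p = 0.0255). No label says that a replicate number marks a shared culture. Deviations of same-numbered arrays from their group means correlated across all probe sets at 0.119 (siRRM1 and siRRM2), 0.303 (siRRM1 and scramble) and 0.252 (siRRM2 and scramble), and across core histone sets at 0.419, 0.512 and 0.394. Probe sets are not independent replicates, so the pairing remains a hint from the data. Where a cause is not given by the smaller number of arrays or probe sets, the cause was not tested. Centring moved the median of all probe sets by 0.045, 0.037 and 0.008 in the 3 contrasts. The 27 core histone sets with means under a log2 signal of 5.43 lie where differences are hard to measure.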
